A study of Mus musculus with 16 samples.

Results

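The genes described here are 59 mitosis and cytokinesis genes of the 22287 genes in the count table. They were taken by gene symbol from lists of known function and comprise the cyclins and kinases of mitotic entry, the spindle checkpoint, the chromosomal passenger complex, the kinetochore, condensin, the spindle motors and the machinery of cytokinesis. All 59 passed the filter on low counts, which 12514 genes passed, and none had a count of 0 in any of the 16 libraries.

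Cells enter mitosis when cyclins A and B activate the kinase CDK1, condensin compacts the chromosomes, and kinesin motors build a spindle whose microtubules attach to the kinetochores. The spindle checkpoint restrains the ubiquitin ligase APC/C until every chromosome is attached. APC/C bound to CDC20 then marks securin and cyclin B for destruction, and a contractile ring guided by the central spindle divides the cell. Transcripts of most of these genes are periodic, are highest shortly before and during mitosis and are low in cells that have left the cycle. M-CSF is a mitogen of bone marrow macrophages, and LPS is known to stop their division.

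Bone marrow cells of C57BL/6J mice aged 8 weeks, with no genetic change named in the labels, were cultured for 7 days with GM-CSF or with M-CSF to give macrophages (GM and M). Each kind was grown on tissue culture treated dishes (TC, hydrophilic) or on untreated dishes (noTC, hydrophobic) and was taken at steady state or after 3 h of LPS, the bacterial agonist of TLR4. The 8 groups (GM-TC and M-TC, GM-noTC and M-noTC, and these with LPS added) held 2 libraries each. The study calls the libraries of a group biological replicates, but neither it nor the labels say whether they came from separate mice or cultures, and p-values measure only the spread between them. Per the study's methods GM cells were seeded more densely than M cells, so the growth factor and the seeding density cannot be told apart.

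The libraries held between 17527802 and 31458363 estimated counts on genes. The 2 GM-TC libraries differed from each other the most of the 8 pairs, with 12.1 times the counting variance (chi-square over its degrees of freedom). The macrophage markers Csf1r and Adgre1 were present throughout, with group means from 741 to 2860 and from 221 to 1400 CPM, counts scaled to a common library total. GM libraries also held Itgax, a gene of dendritic cells and of GM-CSF cultures, at 916 to 984 CPM, against 15.5 to 56.5 CPM in M libraries. Of the genes of early dividing myeloid cells, Elane and Mpo were at most 0.348 CPM in every group and Kit was higher in GM (18.3 to 29.8 CPM) than in M (3.82 to 7.44 CPM). The part of these other cell types in the results below was not tested. Heart muscle genes were present in the TC libraries at steady state, with summed levels of 31.6 and 45.7 CPM in GM-TC and M-TC, and nowhere else above 1 CPM.

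All levels are CPM after TMM scaling, which assumes that most genes do not change between libraries. Taking the geometric mean over the 59 genes, GM-TC libraries stood at 15.3 and 15.2 CPM, GM-noTC at 17.3 and 17.1, M-TC at 34.3 and 34.2, and M-noTC at 52.9 and 51.1. After LPS the same groups stood at 9.63 and 9.53, 11.4 and 10.9, 21.5 and 21.4, and 30.6 and 29.0 CPM. No 2 groups overlapped, and the order ran from GM-TC-LPS at the bottom to M-noTC at the top. Of the 59 genes, 51 had their highest group mean in M-noTC and 45 their lowest in GM-TC-LPS. In these bulk samples, fewer dividing cells and less RNA of these genes in each cell cannot be told apart.

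**Figure D1:**
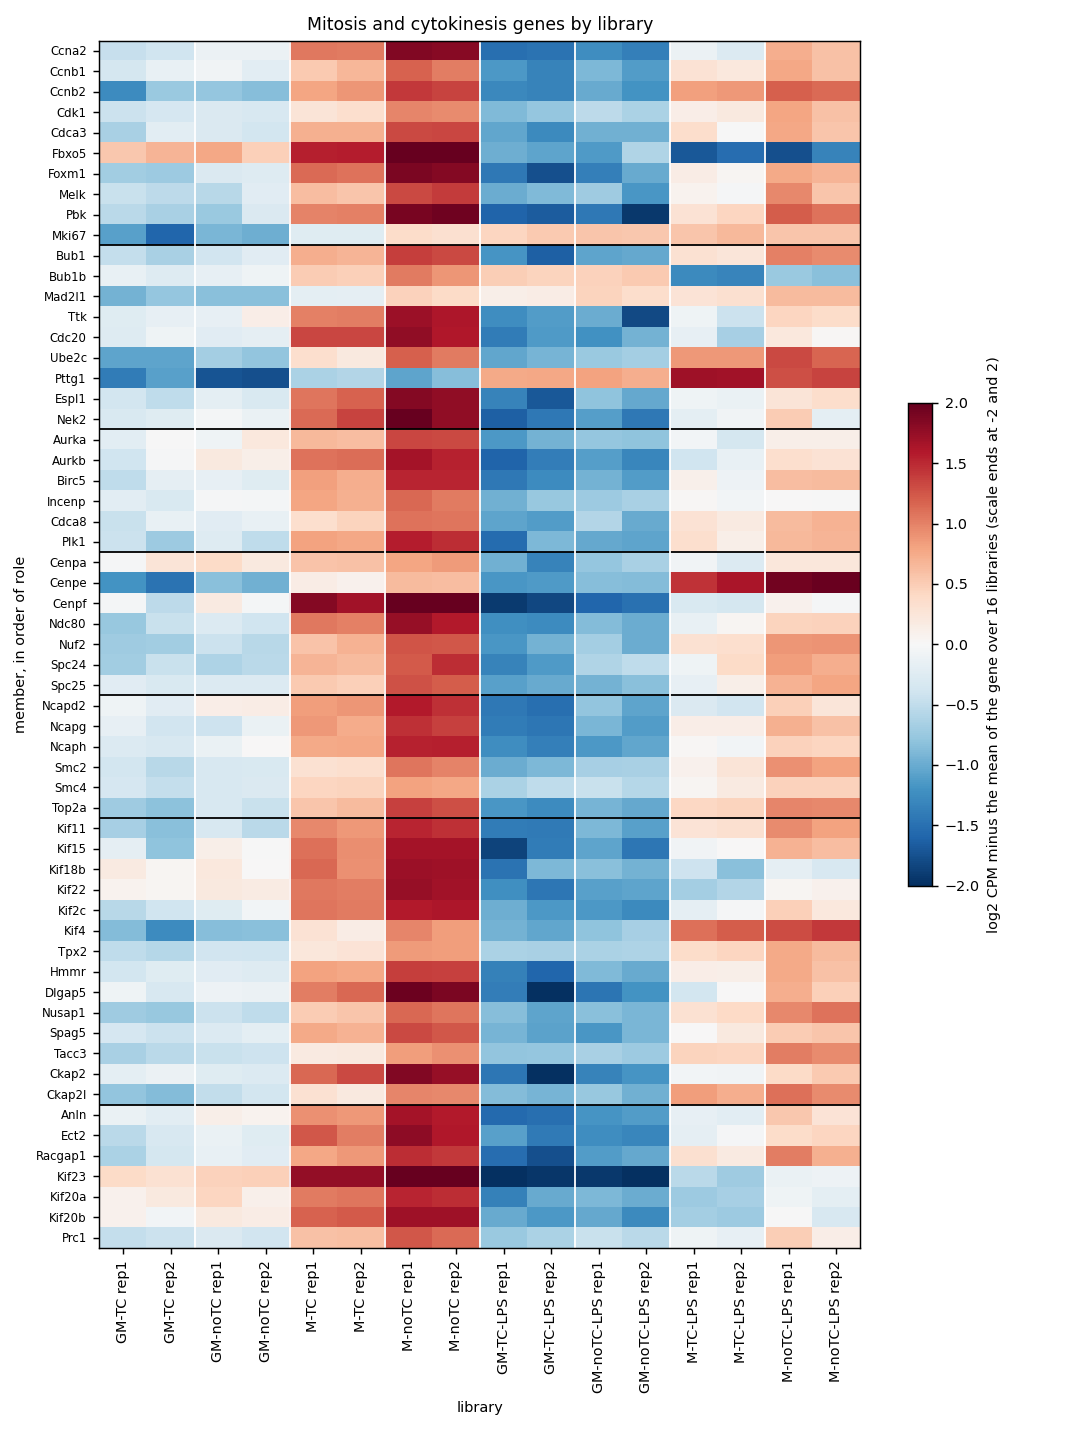
Log2 CPM of the 59 mitosis and cytokinesis genes in the 16 libraries, each relative to the gene's own mean over all libraries (color scale from -2 to 2), with genes ordered by role and black lines between roles. M-noTC has the highest mean of the 8 groups in 51 genes, and Mki67, Mad2l1, Pttg1, Cenpe and Bub1b stand out from the others.

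**Figure D2:**
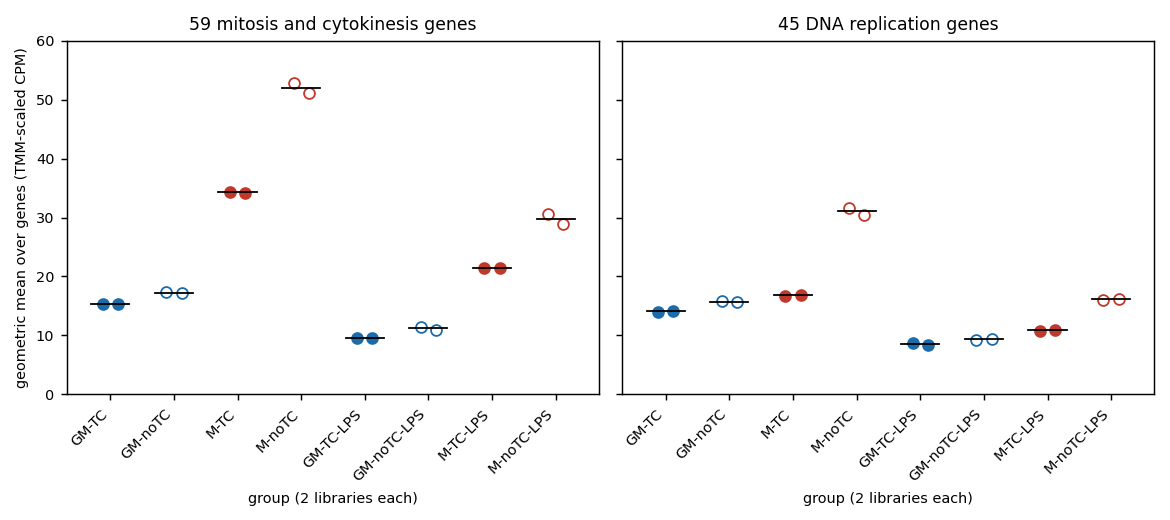
Geometric mean of TMM-scaled CPM over the 59 mitosis and cytokinesis genes (left) and over 45 DNA replication genes (right) by group, with a point for each of the 2 libraries, a line at their mean, blue for GM, red for M and open points for noTC. The mitotic genes differ between GM-TC (15.3 and 15.2) and M-TC (34.3 and 34.2) while the replication genes differ less.

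Per kilobase of merged exon, the median member rose from 1.77 CPM per kb in GM-TC-LPS to 11.2 in M-noTC. The merged exons join those of all annotated transcripts of a gene and can be longer than the RNA present. Ranks between genes by this measure are therefore approximate. Mki67, which encodes the Ki-67 protein that coats mitotic chromosomes and is widely used to mark cycling cells, had the highest level per kb of all members in all 8 groups, from 23.7 in GM-TC to 89.7 in M-TC-LPS. By this measure Spc24, a kinetochore subunit, was the lowest in the 4 groups at steady state (0.745 to 2.85 CPM per kb). In GM-TC it was close to Kif15 (0.750 and 0.788).

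The first comparison was between growth factors. At steady state all 59 members were higher in M than in GM on both dishes (edgeR, adjusted p under 0.05), where 28.9 and 30.7% of all tested genes were higher on TC and noTC. The median log2 fold change over the members was 1.12 on TC and 1.62 on noTC, against -0.02 and 0 over all genes, and the median within each of the 7 roles lay between 1.04 and 1.33 on TC and between 1.35 and 1.74 on noTC. On TC the largest differences were those of Cenpf, a kinetochore protein (2.04 ± 0.11, here and below log2 fold change ± standard error, edgeR, adjusted p = 1.6e-13), and Foxm1, the transcription factor of the late cell cycle (1.83 ± 0.09, adjusted p = 7.9e-14). The smallest were those of Cenpa, the centromeric histone (0.45 ± 0.10, adjusted p = 0.00072), and Pttg1, which encodes securin (0.60 ± 0.09, adjusted p = 9.2e-06). On noTC the largest were those of the mitotic kinase gene Pbk (2.42 ± 0.12, edgeR, adjusted p = 5.6e-14) and of the cyclin gene Ccnb2 (2.19 ± 0.10, adjusted p = 6.4e-15), and the smallest again Cenpa (0.54) and Pttg1 (0.80).

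After LPS, 56 members were higher in M than in GM and 2 were lower on each dish, where 32.9% of tested genes were higher and 33.9% lower on TC, and 32.6% and 33.5% on noTC. The medians over the members were 1.29 and 1.58 on TC and noTC. The lower ones were Bub1b and Fbxo5 on both dishes, of which Fbxo5 was near the threshold, and Mki67 was not called on either (0.13 and 0.01). The kinetochore motor gene Cenpe showed the largest difference on TC (2.68 ± 0.08, edgeR, adjusted p = 9.4e-18) followed by Ccnb2 (2.15), and on noTC Cenpe and Pbk led (2.81 and 2.81). In all 4 settings together 56 members (94.9%) were higher in M, as were 16.3% of all tested genes.

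The second comparison was between dishes, the question of the study. In M cells at steady state 57 members were higher on noTC (96.6%, background 16.1% of tested genes), 1 was lower (background 11.1%) and the median was 0.63. The differences were narrow in range, with the middle 50% of members between 0.55 and 0.70, and no member passed a 2-fold difference between dishes. The medians of the 7 roles lay between 0.56 and 0.69. The largest were those of Pbk (0.93 ± 0.10, edgeR, adjusted p = 5.5e-07) and of Ube2c, the APC/C partner that starts ubiquitin chains (0.85 ± 0.07, adjusted p = 1.4e-08). The exceptions were Cenpa, which was not called (0.25 ± 0.09, adjusted p = 0.058), and Pttg1, which was lower on noTC (-0.33 ± 0.09, adjusted p = 0.0068). The Pttg1 call ended without M-TC replicate 2 (-0.31, edgeR, adjusted p = 0.06) or M-noTC replicate 1 (-0.25, adjusted p = 0.1).

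In GM cells at steady state 12 members were higher on noTC (background 4.69%), 1 was lower (background 2.85%) and 46 were not called, with a median of 0.16. The kinesin gene Kif15 (0.54 ± 0.15, edgeR, adjusted p = 0.029) and Foxm1 (0.44 ± 0.10, adjusted p = 0.007) had the largest differences. Pttg1 was again the one called lower (-0.52 ± 0.11, adjusted p = 0.0029), and the spindle gene Ckap2 came next (-0.11 ± 0.13, adjusted p = 0.71). Without GM-TC replicate 2, Pttg1 was at -0.34 (edgeR, adjusted p = 0.13) and Kif15 at 0.24 (adjusted p = 0.43). The Kif15 call also ended without GM-noTC replicate 1 (0.48) or 2 (0.60), and that of Foxm1 without GM-noTC replicate 2 (0.43). The count of 13 called rests on single libraries. It was 7, 4 and 4 without GM-TC replicate 2, GM-noTC replicate 1 or GM-noTC replicate 2, and 17 without GM-TC replicate 1. With only these 4 libraries in the fit, 1 member was called.

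After LPS the dish difference in M cells was called higher for 51 members (background 10.4%) and lower for 1 (background 12.9%), with a median of 0.50. Ccna2, which encodes cyclin A2, led (0.85 ± 0.07, edgeR, adjusted p = 1.1e-08), followed by Pbk (0.79). Mki67 no longer differed by more than its error (-0.04 ± 0.09, adjusted p = 0.77) and Pttg1 stayed lower on noTC (-0.36 ± 0.07, adjusted p = 0.00071). In GM cells 9 members were higher after LPS (background 2.08%) and none was lower (background 0.727%), with a median of 0.24. Espl1, which encodes separase, had the largest called difference (0.60 ± 0.15, edgeR, adjusted p = 0.037), which DESeq2 did not call (adjusted p = 0.054). The call also ended without GM-TC-LPS replicate 2 (0.42), GM-noTC-LPS replicate 1 (0.49) or GM-noTC-LPS replicate 2 (0.70). The largest of all was that of Spc24, which was not called (0.67 ± 0.26, adjusted p = 0.22), and the lowest were those of Ttk (-0.18 ± 0.23) and Kif2c (-0.15 ± 0.15), not called either. The count of 9 was 0, 1, 4 and 5 when GM-TC-LPS replicate 2, GM-noTC-LPS replicate 1, GM-noTC-LPS replicate 2 or GM-TC-LPS replicate 1 was left out.

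**Figure D3:**
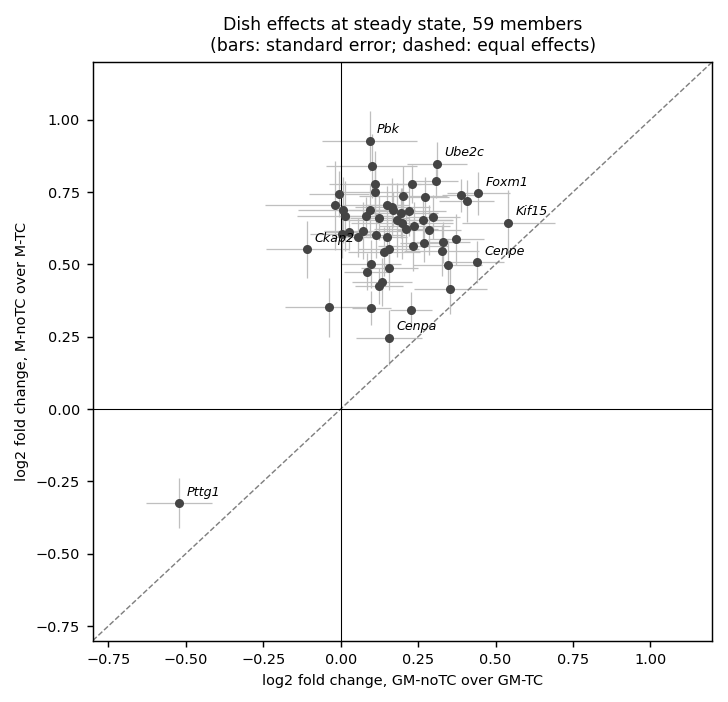
Log2 fold change of noTC over TC at steady state for the 59 members, in GM cells on the x axis and in M cells on the y axis, with standard errors as bars and a dashed line where both are equal. All points lie above the dashed line, between 0.25 and 0.93 on the y axis except Pttg1, which lies below 0 on both axes.

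The third comparison was the LPS response. Within 3 h, 50 members fell in GM-TC (background 34.2% of tested genes lower) and 4 rose (background 32.8%). In GM-noTC again 50 fell (background 34%) and 4 rose (background 33.6%). In M-TC 47 fell (background 36.4%) and 9 rose (background 37.6%), and in M-noTC 50 fell (background 35.9%) and 5 rose (background 36.4%). The medians over the members were -0.83, -0.73, -0.67 and -0.78, where those over all genes lay between -0.05 and -0.01. Falls in all 4 settings were found for 43 members (72.9%, against 22.7% of all tested genes) and rises in all 4 for 3 members (5.08%, against 25%).

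The scaling bears on these values. TMM factors were 1.11 to 1.39 at steady state and 0.778 to 0.842 after LPS. With library size as the only scaling, the median of all genes shifted to -0.53 and -0.54 in GM on TC and noTC and to -0.83 and -0.73 in M, and that of the members to -1.31, -1.24, -1.50 and -1.51. In the same order, 55, 54, 55 and 57 members then fell and 4, 3, 2 and 2 rose, where 62.7%, 63.8%, 69.1% and 68.5% of all tested genes fell and 17.2%, 16.4%, 16.3% and 16.1% rose. All LPS responses below are therefore relative to the median gene.

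Another rule, a fold change above 2 with an unadjusted p under 0.05, was tried as well and is counted in either direction. It called 27, 22, 25 and 28 members upon LPS challenge in GM on TC and noTC and in M on TC and noTC, where 26.6%, 26.3%, 36.1% and 32.5% of tested genes were called. Between growth factors it called 42 and 57 members on TC and noTC at steady state (background 22.2% and 22.6%) and 41 and 47 after LPS (background 25.5% and 25%). Between dishes it called 0 members in GM and M at steady state (background 2.73% and 4.32%) and 0 in both after LPS (background 1.16% and 2.83%).

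**Figure D4:**
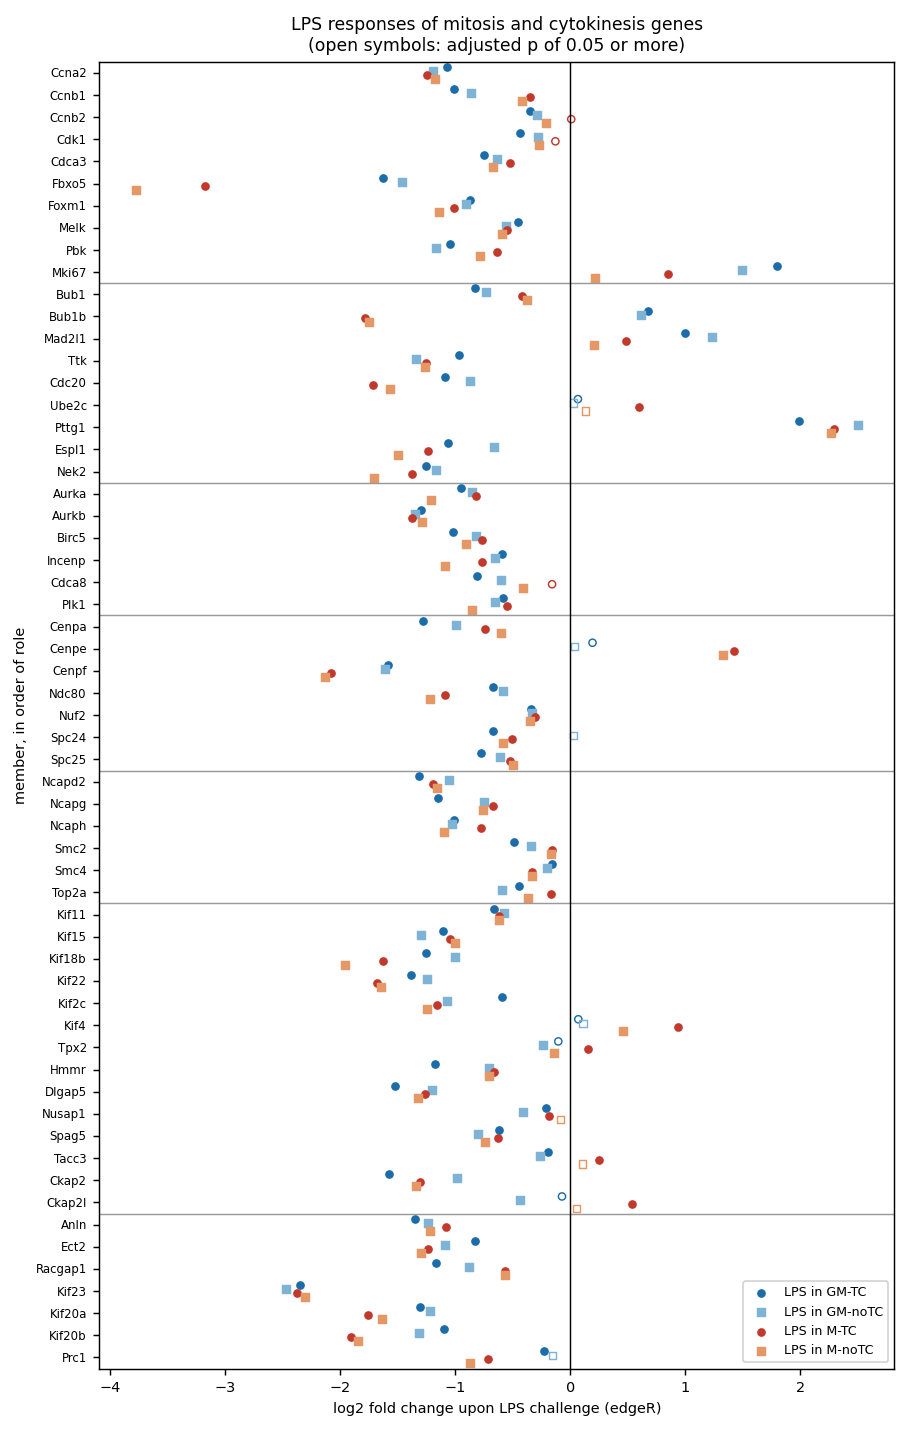
Log2 fold change upon LPS challenge of each member in GM and M cells on TC and noTC (edgeR), in order of role, with circles for TC, squares for noTC, blue for GM, red and orange for M, and filled symbols where the adjusted p was under 0.05. Most symbols lie left of 0, Kif23 near -2.4 in all 4 settings, and Pttg1 and Mki67 lie to the right in all 4.

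The promoters of the members were searched for the letters of the cell cycle homology region (CHR, TTTGAA or TTTAAA), known to be bound by the DREAM and B-MYB complexes, and of the CCAAT box, bound by NF-Y. Both strands of the 250 bases before and 50 after the RefSeq start were read (GRCm38.p6), where a CHR match and a CCAAT match can share 1 base. Of the 59 members 49 matched a promoter, 47 with 1 window. CHR letters were present in 38 of 47 (80.9%), against 19.6% of 7890 tested genes with 1 window and 28.4% of 22862 promoters. CCAAT was present in 72.3%, against 39.6% and 38.2%, and both in 68.1%, against 8.05% and 11.1%. The share with CHR letters was 57.1% of 35 other periodic mitotic genes, 26.7% of 30 replication genes and 17.6% of 17 core APC/C and cohesin genes. A match is a description of letters and not of binding.

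The stretches before the start are shown for 5 members of mitotic entry and exit, to display how these letters are arranged in genes that share the profile. Each is 120 bases on the gene's strand, 5′ to 3′, and ends before the first base that RefSeq or GENCODE places in an exon of the gene, with CHR and CCAAT letters of either strand in capitals.
Ccnb1: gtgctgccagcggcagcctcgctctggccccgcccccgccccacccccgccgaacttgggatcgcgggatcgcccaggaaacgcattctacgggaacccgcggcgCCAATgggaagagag
Ccnb2: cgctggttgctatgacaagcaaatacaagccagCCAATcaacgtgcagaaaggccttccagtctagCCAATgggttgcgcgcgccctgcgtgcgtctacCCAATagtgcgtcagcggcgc
Cdk1: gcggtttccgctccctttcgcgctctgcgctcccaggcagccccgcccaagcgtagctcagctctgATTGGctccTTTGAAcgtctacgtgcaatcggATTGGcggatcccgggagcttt
Cdc20: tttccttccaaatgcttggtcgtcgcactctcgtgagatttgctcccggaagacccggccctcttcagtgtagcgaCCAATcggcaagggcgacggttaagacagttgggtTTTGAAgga
Plk1: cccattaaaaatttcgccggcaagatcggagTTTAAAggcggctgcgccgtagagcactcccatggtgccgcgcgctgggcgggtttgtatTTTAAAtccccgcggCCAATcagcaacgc

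They lie at chr13:100786571-100786690 (minus strand) for Ccnb1, chr9:70421555-70421674 (minus) for Ccnb2, chr10:69352939-69353058 (minus) for Cdk1, chr4:118437353-118437472 (minus) for Cdc20 and chr7:122159315-122159434 (plus) for Plk1. Ccnb2 showed 3 CCAAT boxes, starting 87, 54 and 21 bases before the start, and its nearest CHR letters began 5 bases after it. In Cdk1, CCAAT on the other strand (ATTGG) stood 80 and 48 bases before the start around CHR letters at 71 bases before. The other matches of Ccnb1, at 67 bases (CCAAT) and 42 bases (CHR) before the RefSeq start, fall in its GENCODE exon and are not shown.

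The 9 members with 1 window and no CHR letters were Melk, Bub1, Mad2l1, Pttg1, Nek2, Nuf2, Ncaph, Nusap1 and Tacc3. Pttg1 and Mad2l1, which rose with LPS in all 4 settings, were among them, and Mki67, which also rose, was not. The median LPS change was -0.34, -0.41, -0.31 and -0.35 over these 9 in GM on TC and noTC and in M on TC and noTC, against -0.96, -0.78, -0.71 and -0.81 over the 38 with the letters, with ranges that overlapped. In the M dish comparison at steady state both groups of genes had a like median (0.65 and 0.64).

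Among the 10 cyclins, CDK1 and their regulators, 9 fell upon LPS challenge in GM-TC, GM-noTC and M-noTC and 7 in M-TC, and Mki67 rose in each. Ccnb1, which encodes cyclin B1, read 21.4 and 24.5 CPM in the GM-TC libraries, 25.8 and 23.5 in those of GM-noTC, 39.1 and 43.1 in those of M-TC, and 61.6 and 55.1 in those of M-noTC. With LPS it read 12.2 and 10.7, 14.5 and 12.5, 33.0 and 31.4, and 46.5 and 40.7 CPM in the same order of groups. Every LPS library lay below both libraries of its own steady state group, and M libraries lay above GM libraries within each dish and treatment. The change was -1.01 ± 0.11 and -0.86 ± 0.11 in GM on TC and noTC and -0.35 ± 0.09 and -0.42 ± 0.08 in M, and on TC the fall was less steep in M than in GM (0.66 ± 0.15, edgeR, adjusted p = 0.00089), a call that ended under library size scaling (0.31, adjusted p = 0.095).

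Cdk1 encodes the kinase that cyclin B1 activates. At steady state it read 23.3 and 24.9 CPM in the GM-TC libraries, 25.8 and 25.3 in those of GM-noTC, 37.5 and 39.6 in those of M-TC, and 61.9 and 60.6 in those of M-noTC, and after LPS 17.1 and 18.4, 21.8 and 20.3, 34.5 and 36.1, and 54.2 and 47.3 CPM in the same order of groups. The groups did not overlap. On the log2 scale it fell by 0.44 on TC and 0.28 on noTC in GM and by 0.27 in M-noTC, and it was not called in M-TC (-0.13). The noTC calls ended without replicate 2 of GM-noTC-LPS (-0.23) or of M-noTC-LPS (-0.18). Foxm1 read 11.8 and 11.5 CPM in the GM-TC libraries, 15.7 and 15.97 in those of GM-noTC, 42.2 and 40.6 in those of M-TC, and 70.5 and 68.3 in those of M-noTC. After LPS it read 7.08 and 5.66, 7.39 and 9.49, 21.3 and 19.7, and 32.4 and 30.6 CPM in the same order of groups, below steady state in every pair of groups (-0.87 to -1.14).

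Fbxo5, which encodes EMI1, an inhibitor of APC/C, fell the most of all members in M cells. It read 6.06 and 6.64 CPM in the GM-TC libraries, 7.09 and 5.77 in those of GM-noTC, 12.2 and 12.4 in those of M-TC, and 20.1 and 19.5 in those of M-noTC. Upon LPS challenge the values were 2.12 and 1.997, 1.90 and 2.74, 1.28 and 1.45, and 1.23 and 1.65 CPM in the same order of groups. The fold changes were -1.63 ± 0.18 and -1.46 ± 0.17 in GM on TC and noTC, and -3.17 ± 0.19 and -3.78 ± 0.17 in M (edgeR, adjusted p = 5.5e-15 for the last). It was higher in M at steady state (0.95 and 1.63) and lower in M after LPS (-0.59 ± 0.26, edgeR, adjusted p = 0.046 on TC and -0.69 ± 0.24, adjusted p = 0.016 on noTC). The TC value after LPS was near the threshold. It lost its call with DESeq2 or its size factors, without the filter, with only the 4 libraries, under the replicate block (adjusted p = 0.052) and without any 1 of the 4 libraries (-0.50 to -0.68). The noTC value lost it with only the 4 libraries (adjusted p = 0.054), without GM-noTC-LPS replicate 2 (-0.39, adjusted p = 0.26) and without M-noTC-LPS replicate 1 (-0.49, adjusted p = 0.15).

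Mki67 went the other way. It read 279 and 198 CPM in the GM-TC libraries, 316 and 300.2 in those of GM-noTC, 499.9 and 502 in those of M-TC, and 763 and 741 in those of M-noTC, and after LPS 803 and 851, 869 and 862, 875 and 929, and 875 and 874 CPM in the same order of groups. The 4 groups with LPS thus lay in 1 narrow band above all steady state libraries, whereas the steady state libraries ranged from GM-TC replicate 2 to M-noTC replicate 1. The rises were 1.80 ± 0.09 and 1.49 ± 0.09 in GM on TC and noTC, and 0.85 ± 0.09 and 0.22 ± 0.09 in M (edgeR, adjusted p = 0.032 for the last), the largest in the group that started lowest. When scaled by library size alone, the GM rises held (1.31 and 0.98), the M-TC value was 0.02 (adjusted p = 0.84) and the M-noTC value turned to -0.51. The M-noTC call also ended with DESeq2 (adjusted p = 0.14) and without any 1 of its 4 libraries (0.21 to 0.25).

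The spindle checkpoint and APC/C genes split by member. Of 9 genes, 5 fell in GM-TC and GM-noTC, and 6 in M-TC and M-noTC, and 3, 3, 3 and 2 rose. Cdc20, the activator of APC/C at anaphase, read 7.17 and 8.05 CPM in the GM-TC libraries, 7.30 and 7.58 in those of GM-noTC, 21.5 and 21.7 in those of M-TC, and 29.2 and 26.1 in those of M-noTC. The LPS libraries held 3.26 and 3.90, 3.70 and 4.43, 7.63 and 5.405, and 9.91 and 8.73 CPM in the same order of groups, and each LPS group lay below its steady state group. The falls were -1.09 ± 0.17 and -0.87 ± 0.16 in GM and -1.72 ± 0.13 and -1.57 ± 0.12 in M. Bub1, Ttk, Espl1 and Nek2 likewise fell in all 4 settings.

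Pttg1, which encodes securin, the inhibitor of separase that APC/C removes at anaphase, rose the most of all members in each of the 4 settings. It read 10.4 and 12.9 CPM in the GM-TC libraries, 8.28 and 8.06 in those of GM-noTC, 17.6 and 18.1 in those of M-TC, and 13.2 and 15.1 in those of M-noTC. Once challenged it stood at 46.2 and 46.5, 47.5 and 45.1, 87.9 and 87.1, and 66.8 and 69.8 CPM in the same order of groups, so that every LPS library lay far above all 8 steady state libraries. The rises were 1.98 ± 0.09 and 2.50 ± 0.09 in GM on TC and noTC, and 2.30 ± 0.08 and 2.26 ± 0.08 in M (edgeR, adjusted p = 5.5e-15, 1.3e-16, 2.9e-17 and 4e-17), and remained between 1.47 and 1.99 with library size as the only scaling. Espl1, the gene of the protease that securin holds inactive, fell by 1.06, 0.66, 1.23 and 1.497 on the log2 scale in the same settings. Pttg1 was also the one member called lower on noTC in any dish comparison.

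Mad2l1 and Bub1b encode subunits of the same mitotic checkpoint complex, and the latter responded in opposite directions in GM and M. Mad2l1 read 21.4 and 24.0 CPM in the GM-TC libraries, 23.1 and 23.2 in those of GM-noTC, 35.8 and 36.4 in those of M-TC, and 56.7 and 53.8 in those of M-noTC, and after LPS 44.6 and 45.9, 56.1 and 52.5, 50.01 and 51.3, and 63.8 and 63.5 CPM in the same order of groups. It rose in all 4 settings (0.99, 1.23, 0.49 and 0.21), though with library size as the only scaling the M values turned to -0.34 and -0.52. Without M-noTC replicate 2 the M-noTC value was 0.18 (edgeR, adjusted p = 0.056).

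Bub1b read 31.6 and 29.1 CPM in the GM-TC libraries, 31.1 and 33.1 in those of GM-noTC, 49.6 and 48.7 in those of M-TC, and 71.9 and 64.8 in those of M-noTC. In LPS libraries it read 49.2 and 47.5, 48.1 and 50.1, 14.5 and 14.1, and 20.9 and 19.7 CPM in the same order of groups. Both GM groups with LPS lay above their steady state groups, and both M groups with LPS lay below all other libraries. It rose in GM-TC (0.67 ± 0.07, edgeR, adjusted p = 2.7e-08) and GM-noTC (0.61 ± 0.07, adjusted p = 7.8e-08) and fell in M-TC (-1.78 ± 0.08, adjusted p = 4.6e-15) and M-noTC (-1.75 ± 0.07, adjusted p = 1.2e-15). The difference between the responses on TC was -2.45 ± 0.11 (adjusted p = 6.1e-14), the largest of any member. Scaled by library size alone, the GM values were 0.19 (adjusted p = 0.024) and 0.10 (adjusted p = 0.2). After LPS Bub1b was lower in M than in GM on TC (-1.76 ± 0.08) and noTC (-1.28 ± 0.08), against higher at steady state (0.70 and 1.09).

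Ube2c was not called in either GM response or in M-noTC and rose in M-TC. It read 11.7 and 11.7 CPM in the GM-TC libraries, 15.1 and 14.0 in those of GM-noTC, 30.7 and 27.6 in those of M-TC, and 55.2 and 49.9 in those of M-noTC, and after LPS 11.7 and 12.7, 14.5 and 15.1, 44.4 and 44.0, and 60.4 and 54.5 CPM in the same order of groups. Its M-TC rise of 0.60 ± 0.08 turned to -0.23 with library size as the only scaling. The opposite-strand gene Tnnc2 shares 22.8% of the Ube2c exon bases in GENCODE and averaged 0.00308 CPM over the libraries.

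The 6 Aurora and Polo kinase and chromosomal passenger genes moved together. All 6 fell in GM-TC, GM-noTC and M-noTC and 5 in M-TC, where Cdca8, which encodes borealin, was not called (-0.16). Aurkb, the kinase of the complex that corrects faulty attachments and directs abscission, read 10.9 and 14.1 CPM in the GM-TC libraries, 16.5 and 15.6 in those of GM-noTC, 30.5 and 31.2 in those of M-TC, and 45.4 and 41.8 in those of M-noTC. After LPS it read 4.76 and 5.48, 6.73 and 5.84, 10.9 and 12.96, and 18.1 and 17.5 CPM in the same order of groups. The LPS libraries lay far below their steady state groups in every case, with falls of 1.298, 1.35, 1.38 and 1.29 on the log2 scale. Birc5, which encodes survivin, the subunit that anchors the complex to chromatin, read 9.64 and 12.2 CPM in the GM-TC libraries, 12.2 and 11.5 in those of GM-noTC, 24.3 and 22.7 in those of M-TC, and 39.6 and 39.3 in those of M-noTC, and after LPS 5.07 and 5.76, 7.11 and 6.34, 14.8 and 12.8, and 20.9 and 21.2 CPM in the same order of groups. Each LPS group of Birc5 lay below its steady state group. Plk1, the Polo kinase with several tasks from mitotic entry to cytokinesis, read 10.05 and 8.13 CPM in the GM-TC libraries, 11.3 and 9.46 in those of GM-noTC, 23.7 and 23.0 in those of M-TC, and 40.1 and 37.6 in those of M-noTC. Upon LPS challenge the values were 4.65 and 7.24, 6.63 and 6.52, 17.1 and 14.6, and 21.3 and 21.7 CPM in the same order of groups, with no overlap within a dish and growth factor and falls between 0.55 in M-TC and 0.85 in M-noTC on the log2 scale.

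The 7 centromere and kinetochore genes held 1 exception. Apart from Cenpe, 6 fell in GM-TC, M-TC and M-noTC, and 5 fell in GM-noTC, where Spc24 was not called (0.02). Ndc80, the microtubule-binding subunit of the outer kinetochore, read 7.42 and 9.22 CPM in the GM-TC libraries, 10.3 and 9.50 in those of GM-noTC, 26.0 and 25.2 in those of M-TC, and 41.9 and 37.7 in those of M-noTC. The LPS libraries held 5.33 and 5.20, 6.87 and 6.30, 11.3 and 12.8, and 17.04 and 17.1 CPM in the same order of groups, each LPS group below its steady state group. Cenpf fell by 1.58 and 1.61 in GM and by 2.08 and 2.13 in M on the log2 scale.

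Cenpe, the kinesin that carries chromosomes to the spindle equator, read 25.7 and 20.9 CPM in the GM-TC libraries, 32.7 and 30.2 in those of GM-noTC, 65.1 and 62.0 in those of M-TC, and 90.8 and 89.96 in those of M-noTC. Once challenged it stood at 26.1 and 26.8, 32.5 and 31.9, 159 and 181, and 224 and 229 CPM in the same order of groups. M libraries with LPS lay far above all others, whereas in GM the LPS libraries lay just above steady state on TC and among the steady state libraries on noTC. The change was 0.19 ± 0.09 in GM-TC (edgeR, adjusted p = 0.065) and 0.03 ± 0.08 in GM-noTC (adjusted p = 0.73), against 1.42 ± 0.07 in M-TC (adjusted p = 5.2e-14) and 1.32 ± 0.07 in M-noTC (adjusted p = 9.8e-14). On TC the responses differed by 1.23 ± 0.12 (adjusted p = 1.6e-08). With library size as the only scaling the M rises were 0.59 and 0.60 and the GM values turned to -0.29 and -0.47. No annotated gene shares exon bases with Cenpe, Bub1b, Mad2l1, Pttg1 or Mki67.

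All 6 condensin and topoisomerase genes fell in all 4 settings, with medians between -0.50 and -0.75. Top2a, the topoisomerase that untangles sister chromatids, read 98.2 and 90.9 CPM in the GM-TC libraries, 129 and 118 in those of GM-noTC, 236 and 249 in those of M-TC, and 415 and 393 in those of M-noTC. In LPS libraries it read 71.6 and 67.3, 84.4 and 79.3, 213 and 218, and 316 and 311 CPM in the same order of groups. The groups were apart, and the falls were small in M-TC (-0.17) and larger in GM-noTC (-0.59). The M-TC call ended without M-TC replicate 2 (-0.13) or M-TC-LPS replicate 1 (-0.16). Ncapg, a condensin subunit, read 17.1 and 14.8 CPM in the GM-TC libraries, 14.3 and 17.4 in those of GM-noTC, 34.9 and 32.1 in those of M-TC, and 52.6 and 49.3 in those of M-noTC, and after LPS 7.29 and 7.01, 10.2 and 8.81, 21.0 and 20.9, and 31.4 and 28.8 CPM in the same order of groups, with falls from 0.67 in M-TC to 1.15 in GM-TC on the log2 scale. The opposite-strand gene Lcorl shares 13.4% of its exon bases and itself fell, by 0.61 and 0.32 in GM and by 1.297 and 1.13 in M, so the reads of the shared bases are uncertain.

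Of the 14 spindle motor and microtubule-binding genes, 11 fell in GM-TC, 13 in GM-noTC, and 10 in each M setting, and 4 rose in M-TC. Kif11, the kinesin that pushes the spindle poles apart, read 26.4 and 23.3 CPM in the GM-TC libraries, 33.5 and 28.8 in those of GM-noTC, 81.4 and 75.6 in those of M-TC, and 119 and 115 in those of M-noTC. After LPS it read 15.8 and 15.6, 22.3 and 19.5, 50.3 and 52.0, and 79.9 and 72.8 CPM in the same order of groups, with falls of 0.66, 0.57, 0.62 and 0.62 on the log2 scale. Hmmr, a spindle assembly factor, read 18.2 and 19.8 CPM in the GM-TC libraries, 20.02 and 19.6 in those of GM-noTC, 40.6 and 39.9 in those of M-TC, and 60.8 and 60.6 in those of M-noTC, and after LPS 9.15 and 7.80, 12.7 and 11.6, 25.6 and 25.4, and 39.4 and 35.3 CPM in the same order of groups. It fell in each setting and the most in GM-TC (-1.17). Tpx2, the activator of Aurora A on the spindle, read 31.9 and 30.8 CPM in the GM-TC libraries, 35.0 and 34.4 in those of GM-noTC, 53.3 and 54.7 in those of M-TC, and 82.2 and 81.1 in those of M-noTC, and after LPS 29.2 and 29.1, 29.2 and 29.7, 58.7 and 61.4, and 77.0 and 70.7 CPM in the same order of groups. Its changes were small, -0.10 (not called), -0.24, 0.15 and -0.14, and the M-TC value turned to -0.67 with library size as the only scaling. Both M calls ended without the filter and with DESeq2, that in M-TC also without M-TC replicate 1 (0.13) or M-TC-LPS replicate 2 (0.12), and that in M-noTC without M-noTC replicate 1 (-0.12), M-noTC replicate 2 (-0.15) or M-noTC-LPS replicate 2 (-0.08).

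Kif4, the chromokinesin that also organizes the central spindle, Tacc3 and Ckap2l were the other genes of this role that rose in M-TC. Kif4 read 10.4 and 7.97 CPM in the GM-TC libraries, 10.5 and 10.7 in those of GM-noTC, 23.1 and 21.1 in those of M-TC, and 37.3 and 33.9 in those of M-noTC, and after LPS 9.88 and 9.24, 10.8 and 12.04, 40.9 and 43.8, and 47.1 and 50.5 CPM in the same order of groups. It rose in M-TC (0.94 ± 0.09, edgeR, adjusted p = 3.6e-09) and M-noTC (0.46 ± 0.08, adjusted p = 3.8e-05) and was not called in GM (0.07 and 0.11). Pdzd11 on the opposite strand overlaps 15.1% of its exon bases, and Pdzd11 also rose in M-TC (1.03) and M-noTC (0.87), so these reads cannot be told apart where strand was not kept. When scaled by library size alone, Kif4 was 0.11 in M-TC and -0.27 in M-noTC, Tacc3 turned from 0.25 to -0.58 and Ckap2l from 0.53 to -0.29 in M-TC.

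The 7 cytokinesis genes had the lowest median of the 7 roles in each setting, with -1.16 and -1.21 in GM on TC and noTC and -1.24 and -1.296 in M. All 7 fell in GM-TC, M-TC and M-noTC, and 6 in GM-noTC. Kif23, the motor of centralspindlin, which bundles the midzone microtubules and recruits the contractile ring factors, read 18.5 and 17.4 CPM in the GM-TC libraries, 19.5 and 19.6 in those of GM-noTC, 47.7 and 47.8 in those of M-TC, and 65.4 and 62.8 in those of M-noTC. Upon LPS challenge the values were 3.36 and 3.67, 3.70 and 3.38, 9.70 and 8.60, and 12.8 and 13.2 CPM in the same order of groups, less than the lowest steady state library in every case. The falls were 2.35, 2.47, 2.38 and 2.30 on the log2 scale (edgeR, adjusted p = 1.1e-14, 2.2e-15, 3.6e-17 and 1.4e-17). Its partner in centralspindlin, Racgap1, fell by 1.16 and 0.88 in GM and by 0.57 and 0.56 in M.

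Anln, which encodes anillin, the scaffold of the contractile ring, read 27.5 and 25.9 CPM in the GM-TC libraries, 32.8 and 31.5 in those of GM-noTC, 57.0 and 55.1 in those of M-TC, and 95.9 and 90.7 in those of M-noTC. The LPS libraries held 10.3 and 10.6, 13.4 and 13.9, 27.0 and 26.1, and 43.8 and 36.6 CPM in the same order of groups, with falls between 1.08 and 1.35 on the log2 scale and each LPS group below its own steady state group. Kif20a, the kinesin that brings the passenger complex to the midzone, read 20.2 and 21.8 CPM in the GM-TC libraries, 25.8 and 20.5 in those of GM-noTC, 39.4 and 40.3 in those of M-TC, and 54.9 and 53.2 in those of M-noTC. Once challenged it stood at 7.50 and 9.47, 10.3 and 9.63, 11.5 and 12.1, and 18.1 and 16.7 CPM in the same order of groups. It fell by 1.304, 1.21, 1.76 and 1.64 on the log2 scale, but 29.3% of its exon bases overlap Cdc23 on the opposite strand, which itself fell by 0.72 to 1.26 over the 4 settings. Prc1, the bundler of antiparallel midzone microtubules, read 25.04 and 25.7 CPM in the GM-TC libraries, 28.4 and 26.6 in those of GM-noTC, 52.0 and 52.8 in those of M-TC, and 82.5 and 76.6 in those of M-noTC, and after LPS 20.9 and 22.4, 25.5 and 23.9, 32.7 and 31.1, and 48.7 and 38.3 CPM in the same order of groups. It fell in M (-0.71 and -0.87) and was not called in GM-noTC (-0.16). In GM-TC it fell slightly (-0.23), a call that ended with DESeq2 and without any 1 of the 4 libraries (-0.18 to -0.28).

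**Figure D5:**
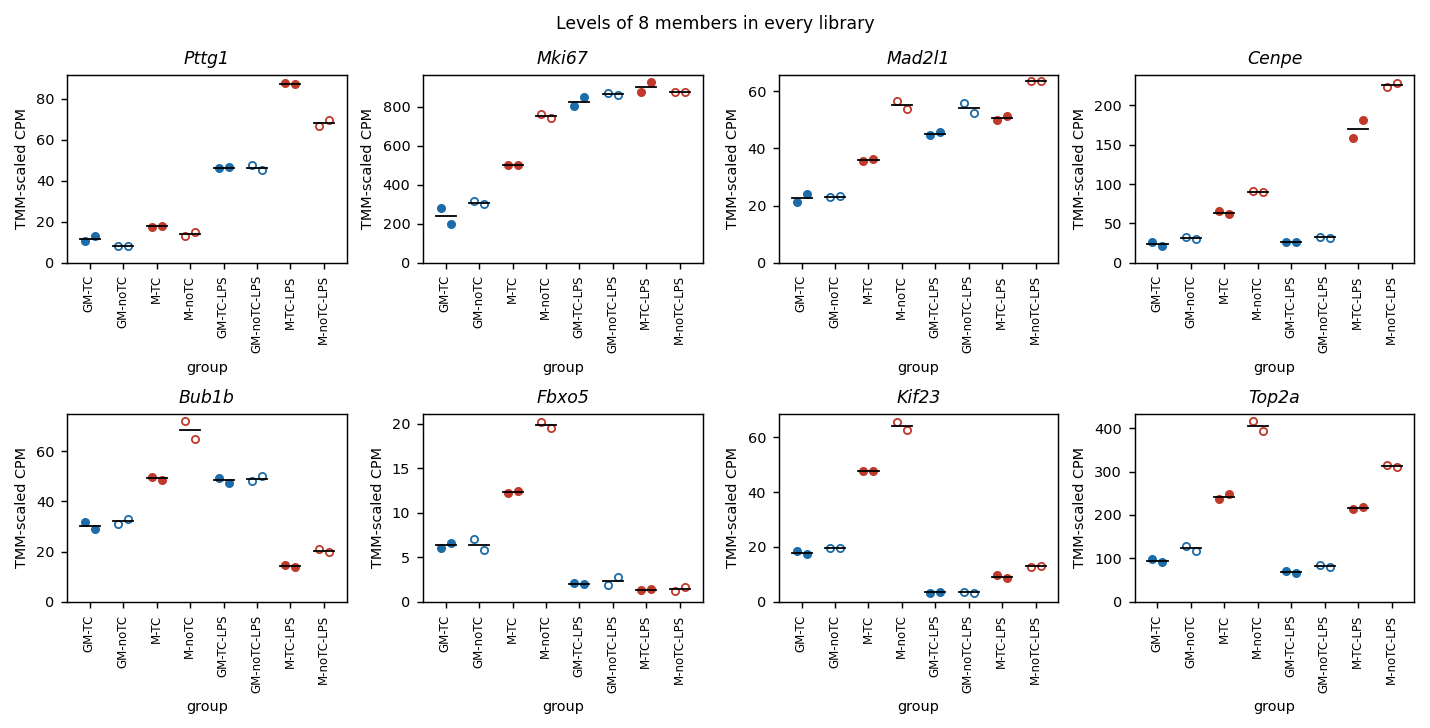
TMM-scaled CPM of 8 members in every library by group, with 2 points a group, a line at their mean, blue for GM, red for M and open points for noTC. Pttg1 is above 45 CPM in all LPS libraries and at most 18.1 at steady state, Cenpe rises with LPS only in the red groups, Bub1b rises in blue and falls in red, and Kif23 and Fbxo5 drop in all groups, with Top2a drawn as a member close to the common pattern.

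The design also lets the effects themselves be compared. The dish effect at steady state was larger in M than in GM for 32 members (background 6.4% of tested genes higher) and smaller for none (background 4.82%), with a median difference of 0.44 on the log2 scale. Pbk (0.83 ± 0.19, edgeR, adjusted p = 0.0045) and Spc25, a kinetochore subunit (0.75 ± 0.13, adjusted p = 0.00035), had the largest differences. After LPS the same difference was called higher for 13 members (background 3.71%) and lower for 1, Pttg1 (-0.35 ± 0.10, edgeR, adjusted p = 0.028; background 6.87%), with a median of 0.25. The Pttg1 call ended under library size scaling (-0.25) and in 6 of 8 fits with a library left out (-0.32 to -0.36). The steady state count fell to 18 without M-noTC replicate 1, 19 without M-TC replicate 1 and 20 without GM-noTC replicate 2, and the count after LPS to 5 without M-TC-LPS replicate 1 or M-noTC-LPS replicate 1.

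The LPS response did not differ by dish for any member in GM by edgeR (background 0.192% higher and 0.591% lower). At an unadjusted p under 0.05 there were 8 members (13.6%, against 8.85% of all tested genes), and DESeq2 called 0. In M cells 10 members had an unadjusted p under 0.05 (16.9%, against 23.2% of all tested genes). By adjusted p the response in M was lower on noTC than on TC for 7 members (background 7.48%). It was higher for none (background 3.11%), so the calls were near the background. The 7 members were Mki67 (-0.63 ± 0.12, edgeR, adjusted p = 0.0019), Ube2c, Kif4, Ckap2l, Incenp, Tpx2 and Mad2l1, 6 of which were among those that rose in M-TC. Scaled by library size alone, 3 were called, and 2 without M-TC replicate 2 or M-noTC replicate 1.

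On TC the LPS response was higher in M than in GM for 17 members (background 23.3%) and lower for 10 (background 17.8%) and the median was 0.06, so the shares of members, 28.8% and 16.9%, were near the background. With library size as the only scaling the split was 2 higher and 22 lower and the median was -0.28, where the median of all genes was -0.30. The extremes were Bub1b (-2.45) and Fbxo5 (-1.54 ± 0.29, edgeR, adjusted p = 0.00016) on one side and Cenpe (1.23) and Kif4 (0.87 ± 0.15, adjusted p = 9e-05) on the other.

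By a fold above 2 with an unadjusted p under 0.05, no member was called in the differences of LPS responses between dishes in GM or M (background 1.55% and 2.57% of tested genes) or in the differences of dish effects between growth factors at steady state or after LPS (background 3.25% and 2.92%). The difference of LPS responses between growth factors on TC was called for 3 members, Bub1b, Fbxo5 and Cenpe (background 13.9%).

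Across the 16 libraries most members shared 1 profile. With the mean of the standardized log2 CPM of the members, the median Pearson r was 0.966 and 43 members were above 0.9, as a description, since the members make up that mean and the libraries share their groups. Mad2l1 (0.28), Mki67 (0.12), Bub1b (0.08) and Pttg1 (-0.18) were under 0.5. Of the other genes the most alike were Tk1 (0.992), Fancd2 (0.990), Lmnb1 (0.988), Knl1 (0.988) and Ercc6l (0.986), followed by Hmgn1, Knstrn, Ighm, Pole and Trim59 (0.985 to 0.982).

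Related lists were set beside the members. Of all tested genes 16.1% were higher on noTC in M at steady state and 10.4% after LPS, and 4.69% and 2.08% in GM. At steady state 28.9% and 30.7% were higher in M than in GM on TC and noTC. Between 34% and 36.4% fell upon LPS challenge in each setting. Of 49 other periodic mitotic genes, such as further kinetochore and kinesin genes, 41 were higher on noTC in M at steady state (median 0.62), 41 and 47 were higher in M than in GM on TC and noTC (medians 0.91 and 1.36), and 34 to 36 fell upon LPS challenge in each setting. Of 26 core APC/C and cohesin genes, which are not periodic, 7 were higher on noTC in M (median 0.09) and 6 to 10 fell with LPS, with medians between 0.03 and 0.07.

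Of 45 DNA replication genes, 41 were higher on noTC in M at steady state (median 0.91) and 34 after LPS (median 0.58), and 17 passed 2-fold at steady state, as no member did. In GM 5 were higher on noTC at steady state (median 0.16) and 0 after LPS by edgeR (median 0.12), and 32 to 37 fell upon LPS challenge in each setting. Between growth factors at steady state 23 were higher and 7 lower in M on TC (median 0.29, background 28.9% and 32.6%), and 43 were higher and 1 lower on noTC (median 1.01, background 30.7% and 31.4%). The ratio of the geometric means of mitotic over replication genes was 1.10 and 1.07 in GM-TC and 1.10 and 1.10 in GM-noTC, against 2.06 and 2.02 in M-TC and 1.67 and 1.68 in M-noTC. After LPS it was 1.11 to 1.23 in the GM libraries and 1.78 to 1.99 in the M libraries, so GM and M did not overlap in this ratio. Both lists pool genes of unequal length, and the ratio is compared between libraries only.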

How the data were processed

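Total RNA of 16 libraries was sequenced after poly(A) selection. Per the study's methods the authors aligned clean reads to the mouse genome with HISAT2 and quantified genes with RSEM. The deposited values are estimated counts per gene and library, as the file header and the unequal totals with values that are not whole show. Per the labels, fastp 0.18.0, Bowtie2 2.2.8, StringTie 1.3.1, DESeq2 and edgeR were also used. The genome build and the strand setting are not given in the sources used here. Between 6.56 and 8.19% of values in a library were not whole, and all were rounded.

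Genes were filtered by filterByExpr, leaving 12514 of 16756 with a count, scaled by TMM and fitted over all 16 libraries and 8 groups with the quasi-likelihood test of edgeR (4.0.16, limma 3.58.1, R 4.3.3). Calls had a Benjamini-Hochberg adjusted p under 0.05 over all tested genes. This fit recovered 63.6, 84.1 and 98.4% of simulated log2 changes of 0.5, 1 and 2 in the M dish comparison. In the simulation few genes changed and the other groups had equal means, unlike these libraries, so the shares may not hold for the data. A library's floor of 3 counts was 0.0697 to 0.174 CPM. This covers counting error only.

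Lengths and exon overlaps came from GENCODE vM21 and promoters from RefSeq (GRCm38.p6). Profiles used log2(CPM + 0.5). Named genes were a set given for each role, the extreme members of each comparison, those called against the median direction and the 10 genes most alike in profile. Racgap1, Cdca8 and Espl1 were added after their values were seen. The members and lists were chosen with earlier results of these data known. Alternatives changed the scaling, filter, libraries in the fit, tool (DESeq2 1.42.0), replicate block and thresholds, and left out each library in turn.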

Additional observations from a re-analysis of the deposited data

Results flagged for a closer look

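An effect that differed between groups by the test of the difference itself was found in 4 comparisons. The LPS response differed between dishes in M cells for 7 members, all lower on noTC, near the background (7.48% of tested genes lower and 3.11% higher). The dish effect differed between M and GM cells for 32 members at steady state (background 6.4% higher and 4.82% lower). After LPS it differed for 14 (background 3.71% higher and 6.87% lower). The LPS response on TC differed between M and GM cells for 27 members, near the background (23.3% of tested genes higher and 17.8% lower). Of these members Bub1b, Fbxo5, Mki67 and Kif20b were the lowest in M relative to GM, and Cenpe, Kif4 and Ccnb1 the highest. With library size as the only scaling Ccnb1 was no longer called (0.31, edgeR, adjusted p = 0.095), and 2 members were higher and 22 lower. Adjusted p-values are from edgeR over all tested genes, and the share of tested genes called stands beside each count above. Groups of 2 libraries allow no test for a single library far from the others.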

How the results depend on the processing

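Adjusted p-values are from edgeR, and counts are of members called in either direction. With library size as the only scaling, the median change of all genes upon LPS challenge moved from near 0 on the log2 scale. It became -0.53 and -0.54 in GM on TC and noTC and -0.83 and -0.73 in M, and several directions turned. The median difference of LPS responses between dishes in M turned to 0.016 with 3 called, and that between growth factors on TC to -0.28. Upon LPS challenge Cenpe turned to -0.29 in GM-TC and -0.47 in GM-noTC, Kif4 to -0.41 and -0.40, and Spc24 to -0.48 in GM-noTC. In M-TC the turned values were -0.29 for Ckap2l, -0.34 for Mad2l1, -0.58 for Tacc3, -0.67 for Tpx2 and -0.23 for Ube2c, and in M-noTC -0.27 for Kif4, -0.52 for Mad2l1 and -0.51 for Mki67. The Mki67 dish value in M after LPS turned to 0.043. Medians upon LPS challenge then were -1.31 and -1.24 in GM and -1.50 and -1.51 in M, and those between growth factors at steady state 1.43 on TC and 1.91 on noTC.

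A fold above 2 with an unadjusted p under 0.05 called 0 members in the 4 dish comparisons, 27, 22, 25 and 28 in the LPS comparisons, 3 in the difference of LPS responses between growth factors and 0 in the other differences. With the libraries of the comparison alone, 1 was called between dishes in GM at steady state, and without the filter on low counts 2 were called in the difference of LPS responses between dishes in GM.

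Leaving out 1 library at a time gave 4 to 17 called between dishes in GM at steady state, 0 to 5 after LPS, 0 to 3 and 2 to 5 for the difference of LPS responses between dishes in GM and M, and 18 to 30 and 5 to 15 for the difference of dish effects at steady state and after LPS. Values near 0 changed sign, with Kif4 in GM-TC between -0.12 and 0.27, Cenpe in GM-noTC between -0.00378 and 0.12, Spc24 there between -0.018 and 0.078, and the Mki67 dish value in M after LPS between -0.085 and 0.00065. The Ttk dish value in GM after LPS ran from -0.63 to 0.18. The lone library of a group was assumed to vary like the others.

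The deviations of libraries of the same number correlated between -0.064 and 0.036 over all tested genes. These values cannot tell whether such libraries shared a mouse or culture, since an origin that marks few genes would not show. With the replicate number as a block, 14 members were called between dishes in GM at steady state and 58 in M, 54, 54, 55 and 55 upon LPS challenge, and 59 between growth factors at steady state on both dishes. Subtracting a share of the other libraries' reads from the noTC libraries at steady state, chosen after seeing the data, left 12 and 58 called between dishes. With 2 libraries a group, small differences in genes of a few CPM could not be resolved.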
